A study of Mus musculus with 12 samples.

Results

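The genes described here encode 10 proteoglycan core proteins: the 4 syndecans *Sdc1*, *Sdc2*, *Sdc3*, and *Sdc4*, the glypican *Gpc1*, the small leucine-rich proteoglycans *Dcn* (decorin), *Bgn* (biglycan), *Lum* (lumican), and *Fmod* (fibromodulin), and the large matrix proteoglycan *Vcan* (versican). They were taken by name as 10 of the 55536 genes in the deposited count table, and all 10 passed the filter on low counts. The measurements are RNA-seq counts from C2C12 mouse myoblasts that express green fluorescent protein, an immortalized muscle line that stops dividing and fuses into myotubes when serum is reduced. All 12 samples were of this line, and in the study's design all were taken through differentiation in the same low-serum medium. The groups were an uncoated plate (control), Collagen I, fibronectin, and Geltrex™, a basement membrane matrix rich in laminin and Collagen IV, with 3 samples each. The day of differentiation at which RNA was taken is not given in the sources used here. The labels do not say whether the 3 samples of a group were separate cultures, so p-values measure the spread between these samples, which may be technical.

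Proteoglycans are proteins that carry long sulfated sugar chains. Syndecans cross the cell membrane, hold mostly heparan sulfate chains outside the cell, and act with integrins as receptors for fibronectin, laminin, and collagens. *Gpc1* carries the same kind of chain but is tied to the membrane by a lipid anchor. Decorin, biglycan, lumican, and fibromodulin are secreted, bind collagen fibrils, and shape fibril assembly, and decorin and biglycan also bind growth factors of the TGF-β family, which includes myostatin. Versican is a chondroitin sulfate proteoglycan that binds hyaluronan and forms a loose, hydrated matrix around cells. In muscle, *Sdc3* and *Sdc4* are known from satellite cells, the resident stem cells, and versican is known from the transient matrix of muscle that is forming or regenerating.

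Each sample held from 22520404 to 27351766 counts, and 14499 genes were tested. Levels are given as CPM, counts scaled to a common library size after TMM normalization, and as mean ± SD of 3 samples. The Geltrex™ samples resembled each other more than those of the other groups did. A chi-square of counts over genes was 2.18 to 4.54 per degree of freedom between Geltrex™ samples and 7.71 to 64.6 within the other groups, where sampling noise alone gives 1. No pair was within sampling noise. Because the Geltrex™ samples were closer to each other than those of the other groups, values with the 3 summed into 1 sample are given for the Geltrex™ calls. The 10 myotube markers, among them *Myog* and *Ckm*, were detected in every group, and their summed level was 8905 to 9959 CPM in the control, 9617 to 9965 CPM with Collagen I, 2868 to 3397 CPM with fibronectin, and 4272 to 4585 CPM with Geltrex™. The 10 proliferating cell markers, among them *Mki67* and *Top2a*, summed to 204 to 266 CPM, 181 to 192 CPM, 670 to 906 CPM, and 707 to 763 CPM in the same order. Fibroblast markers summed to between 881 and 1410 CPM over all samples with *Tcf21* at 0 in each, and 4 of 6 smooth muscle and pericyte markers stayed under 1 CPM in every sample (sum of all 6 from 370.2 to 513 CPM, led by *Pdgfrb* and *Notch3*). Endothelial markers summed to at most 3.49 CPM and macrophage markers to at most 1.75 CPM, with *Adgre1* at 0.

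The 4 syndecans differ along most of their length but end alike, in a short tail inside the cell that binds adaptor proteins, and the last 60 coding bases of each are shown to make the family visible. They were read from GENCODE M21 transcripts (GRCm38), run 5′ to 3′ on the coding strand and end with the stop codon, and capitals mark the 14 bases shared by all 4 genes at the same position.
*Sdc1*, chr12:8791748-8791807, plus strand: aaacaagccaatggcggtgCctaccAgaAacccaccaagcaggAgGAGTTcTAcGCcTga
*Sdc2*, chr15:33032481-33032540, plus strand: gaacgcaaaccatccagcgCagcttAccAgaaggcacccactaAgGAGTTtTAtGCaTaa
*Sdc3*, chr4:130822750-130822809, plus strand: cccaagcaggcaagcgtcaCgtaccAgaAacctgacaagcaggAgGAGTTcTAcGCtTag
*Sdc4*, chr2:164426086-164426145, minus strand: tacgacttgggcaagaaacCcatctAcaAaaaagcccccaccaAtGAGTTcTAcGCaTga
*Sdc1* and *Sdc3* were the most alike in this stretch, with 38 of 60 bases identical, and *Sdc2* and *Sdc4* shared 31. The remaining pairs shared 22 to 26 bases.

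*Sdc3* and *Sdc4* moved together across the coatings, so the 250 bases before the RefSeq start of each gene are shown (GRCm38.p6, 5′ to 3′ on the gene's strand), with capitals on each GC box, GGGCGG on either strand. The *Sdc4* window lies inside the span of that gene in GENCODE M21 (chr2:164424247-164443887), whose annotated start is farther upstream than the RefSeq start.
*Sdc3*, chr4:130792287-130792536, plus strand: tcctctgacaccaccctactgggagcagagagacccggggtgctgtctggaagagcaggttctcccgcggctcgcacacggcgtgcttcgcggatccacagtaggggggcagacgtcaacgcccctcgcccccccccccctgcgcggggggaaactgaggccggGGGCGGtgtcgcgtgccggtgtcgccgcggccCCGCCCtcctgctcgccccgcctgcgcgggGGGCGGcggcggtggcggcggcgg
*Sdc4*, chr2:164443189-164443438, minus strand: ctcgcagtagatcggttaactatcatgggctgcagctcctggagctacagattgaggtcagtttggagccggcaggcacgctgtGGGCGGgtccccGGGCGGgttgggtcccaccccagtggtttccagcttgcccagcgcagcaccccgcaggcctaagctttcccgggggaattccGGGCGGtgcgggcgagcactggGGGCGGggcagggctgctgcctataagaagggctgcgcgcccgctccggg
The *Sdc3* window held 3 GC boxes and the *Sdc4* window 4, and 32.7% of all 32851 windows of this length held at least 1. GC content was 76.4% and 68% against a median of 52.4% over all windows. Neither window held an E-box (CANNTG, the letters bound by MyoD and myogenin), which 66.2% of windows held, nor an AP-1 (TGANTCA), or TEAD (GGAATG) match, nor the letters TATAAA. The *Sdc4* window held 1 match to the NF-kB consensus, as did that of *Sdc1*, and 7.25% of all windows held one. Windows were found for 6 of the 10 genes. Those of *Sdc1*, *Bgn*, and *Vcan* held 3, 3, and 2 GC boxes and that of *Fmod* held 0, and the *Sdc1*, *Bgn*, *Fmod*, and *Vcan* windows each held 1 E-box. A match describes letters only and is no measurement of a bound factor.

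On a scale corrected for exon length (FPKM, CPM divided by exon length in kilobases), the genes spanned a wide range of levels. *Sdc2* had the highest mean level over the 12 samples at 352 FPKM, followed by *Dcn* at 301 FPKM, *Bgn* at 262 FPKM, *Gpc1* at 163 FPKM, and *Sdc4* at 105 FPKM. *Sdc1* and *Vcan* lay close together at 43.2 and 42.5 FPKM, and their ranges over samples, 36.7 to 49.7 FPKM and 23.7 to 59.1 FPKM, overlapped. *Lum* followed at 25.5 FPKM, *Sdc3* at 5.12 FPKM, and *Fmod* at 0.493 FPKM. The ranges of *Sdc2*, *Dcn*, and *Bgn* also overlapped, so their order is not set by these samples. *Fmod* rested on 15 to 92 counts per sample and *Sdc3* on 394 to 1227, whereas *Dcn* had 28972 to 54984.

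**Figure D1:**
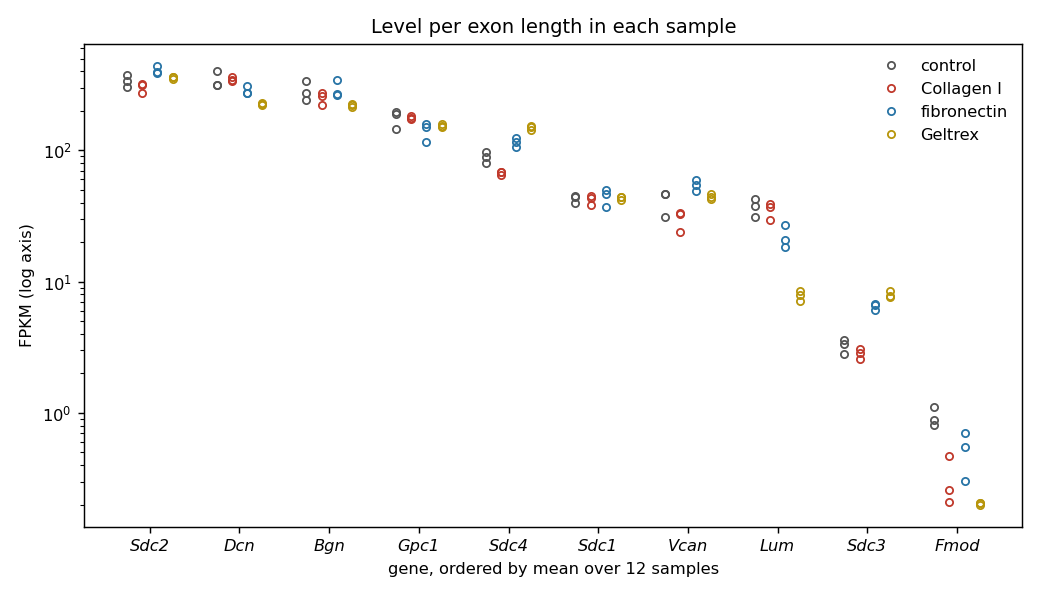
Level per exon length of the 10 genes in each of the 12 samples, in FPKM on a log axis, with genes ordered by their mean and colors for the 4 groups (3 circles each). *Sdc2*, *Dcn*, and *Bgn* lie highest, *Fmod* lies lowest, and *Lum* shows the widest spread between groups, with Geltrex™ lowest.

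In a test over the 4 groups at once, 8 of the 10 genes differed at an adjusted p of at most 0.05, against 53.3% of all genes tested, and *Sdc1* and *Gpc1* did not pass (adjusted p = 0.936 and 0.0691 in edgeR). The largest differences were in *Lum* and *Fmod*, which were lowest on Geltrex™, and in *Sdc3* and *Sdc4*, which were highest there. The 6 pairwise comparisons share samples, so their values for a gene are not independent of each other. In bulk RNA, fewer cells of a type and less RNA per cell cannot be told apart.

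Collagen I was compared with the control to ask what the coating alone changed in these genes. *Sdc4* and *Fmod* were lower on Collagen I, by 0.39 and 1.58 on the log2 scale. These 2 of 10 stand beside 0.917% of all genes called lower, and 0 of 10 were called higher beside 0.2% of all genes (0 also at an unadjusted p under 0.05 in edgeR and 0 by DESeq2). With a fold change of at least 2 also required, 1 gene, *Fmod*, was called beside 0.131% of all genes. On fibronectin, *Sdc2*, *Sdc3*, and *Sdc4* were higher than in the control (3 of 10, beside 17.1% of all genes), and *Gpc1*, *Dcn*, *Lum*, and *Fmod* were lower (4 of 10, beside 14.7%). With a fold change of at least 2 required, 0 of 10 were called beside 6.66% of all genes (0 also at an unadjusted p under 0.05 in edgeR, and 1, *Sdc3*, by DESeq2). On Geltrex™, *Sdc3* and *Sdc4* were higher than in the control (2 of 10, beside 16.4%), and *Dcn*, *Bgn*, *Lum*, and *Fmod* were lower (4 of 10, beside 16.6%). A fold change of at least 2 was reached by *Sdc3*, *Lum*, and *Fmod*, 3 of 10 beside 9.14% of all genes.

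The study set Collagen I against the other coatings. Against fibronectin, Collagen I gave higher *Gpc1*, *Dcn*, and *Lum* (3 of 10, beside 22.1%) and lower *Sdc2*, *Sdc3*, *Sdc4*, and *Vcan* (4 of 10, beside 22.9%), and of these only *Sdc3* reached a fold change of 2 (1 of 10, beside 8.46%). Against Geltrex™, Collagen I gave higher *Dcn* and *Lum* (2 of 10, beside 18.2%) and lower *Sdc2*, *Sdc3*, *Sdc4*, and *Vcan* (4 of 10, beside 19%), with *Sdc3*, *Sdc4*, and *Lum* past a fold change of 2 (3 of 10, beside 9.32%). Fibronectin gave higher *Dcn*, *Bgn*, *Lum*, and *Fmod* than Geltrex™ (4 of 10, beside 10.3%) and lower *Sdc3* and *Sdc4* (2 of 10, beside 9.06%), with *Lum* and *Fmod* past a fold change of 2 (2 of 10, beside 3.98%). Several of these shares rest on 1 or 2 genes and lie near the share of all genes. The median log2 fold change of the 10 genes was -0.17, 0.04, and -0.10 on Collagen I, fibronectin, and Geltrex™ against the control, beside medians of -0.00, -0.02, and -0.01 over all genes.

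**Figure D2:**
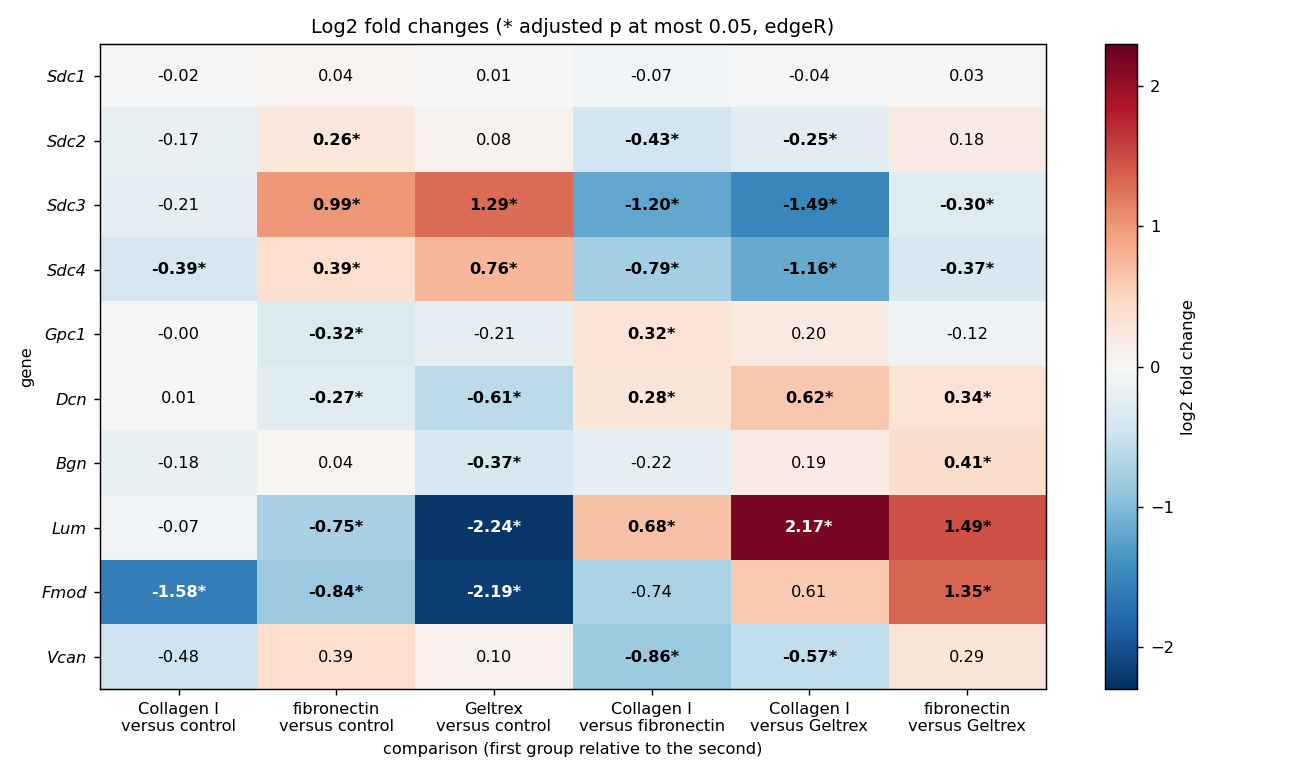
Log2 fold changes of the 10 genes (rows) in the 6 comparisons (columns), the first group relative to the second, with red for higher and blue for lower. Bold values with an asterisk passed an adjusted p of at most 0.05 in edgeR, and *Lum* and *Fmod* show the deepest decreases on Geltrex™, of -2.24 and -2.19.

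*Sdc3* (ENSMUSG00000025743, chr4:130792537-130826319, GRCm38), the syndecan with the longest extracellular part, was the member of its family that changed most. Its level was 20.01, 21.6, and 16.8 CPM in the control samples, 17.1, 15.4, and 18.3 CPM with Collagen I, 39.7, 36.2, and 40.5 CPM with fibronectin, and 46.0, 50.5, and 46.3 CPM with Geltrex™. Every fibronectin and Geltrex™ sample lay above every control and Collagen I sample, while the control and Collagen I samples overlapped. *Sdc3* was thus 1.99-fold higher on fibronectin than in the control (log2 fold change 0.99 ± 0.10 SE, adjusted p = 2.59e-06) and 2.44-fold higher on Geltrex™ (1.29 ± 0.10, adjusted p = 1.32e-07). Both calls and those between Collagen I and these coatings (-1.20 and -1.49) held in all 20 alternatives, and with the Geltrex™ samples summed the difference from the control was 1.30 (adjusted p = 4.52e-05). The 3 Geltrex™ samples also lay above the 3 fibronectin samples, with a log2 fold change of -0.30 for fibronectin relative to Geltrex™ (adjusted p = 0.045). That call was lost (adjusted p = 0.0594 to 0.173) without Collagen I replicate 1, any Geltrex™ replicate, or fibronectin replicate 1 or 2, and also with no filter on low counts (0.0578), with replicate number added as a block (0.0596), and with the Geltrex™ samples summed (0.364).

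*Sdc4* (ENSMUSG00000017009, chr2:164424247-164443887), the syndecan found at focal adhesions, where it binds fibronectin together with integrins, followed the same order of groups and also set Collagen I apart from the control. The levels were 225, 246, and 203 CPM in the control, 173, 166, and 173 CPM with Collagen I, 296, 271, and 318 CPM with fibronectin, and 387, 389.8, and 366 CPM with Geltrex™. No group overlapped with another in these samples, and Collagen I was lowest. Relative to the control, *Sdc4* was 1.31-fold higher on fibronectin (log2 fold change 0.39 ± 0.08 SE, adjusted p = 0.00229) and 1.69-fold higher on Geltrex™ (0.76 ± 0.08, adjusted p = 4.55e-06, and 0.00137 with the Geltrex™ samples summed). It was 2.23-fold lower on Collagen I than on Geltrex™ (-1.16 ± 0.09, adjusted p = 5.93e-08) and 1.73-fold lower than on fibronectin (-0.79 ± 0.08, adjusted p = 3.26e-06). Fibronectin stood below Geltrex™ by 0.37 on the log2 scale (-0.37 ± 0.08, adjusted p = 0.00591), a call that was lost only with the Geltrex™ samples summed (adjusted p = 0.171). The decrease on Collagen I relative to the control (-0.39 ± 0.08, adjusted p = 0.0339) was lost without Collagen I replicate 1 or 2, any Geltrex™ replicate, control replicate 1 or 2, or fibronectin replicate 1 (adjusted p = 0.0566 to 0.161), and when the Geltrex™ samples were summed (0.134) or only these 2 groups were fitted (0.161).

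*Sdc2* (ENSMUSG00000022261, chr15:32920723-33034935), the most abundant syndecan here per length, moved less. Its level was 1075, 1196, and 1322 CPM in the control, 1126, 1105, and 966 CPM with Collagen I, 1378, 1551, and 1383 CPM with fibronectin, and 1285, 1279, and 1241 CPM with Geltrex™. The fibronectin samples lay above all others, and the Collagen I samples lay below those on both other coatings but overlapped with the control. The 1.35-fold difference between Collagen I and fibronectin (log2 fold change -0.43 ± 0.09 SE, adjusted p = 0.00155) held in all 20 alternatives. The smaller differences did not. Fibronectin against the control (0.26, adjusted p = 0.0395) was lost without any 1 of the Geltrex™ replicates, control replicate 1 or 2, or fibronectin replicate 1 or 2 (adjusted p = 0.0562 to 0.174). It was also lost with the Geltrex™ samples summed (0.0779), with only these 2 groups fitted (0.111), with upper quartile normalization (0.0514), and with at least 10 counts required in every sample (0.0544). Collagen I against Geltrex™ (-0.25, adjusted p = 0.0425) was lost without Collagen I replicate 2 or 3, any Geltrex™ replicate, or fibronectin replicate 1 (0.0516 to 0.142), and also with the Geltrex™ samples summed (0.269), with upper quartile normalization (0.0684), and under the replicate block (0.0508).

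*Sdc1* (ENSMUSG00000020592, chr12:8771323-8793715), an epithelial syndecan that is also expressed in myoblasts, was the gene that moved least. The control samples had 171, 168, and 151 CPM, the Collagen I samples 171, 145, and 166 CPM, the fibronectin samples 177, 139.9, and 189 CPM, and the Geltrex™ samples 167, 168, and 159 CPM. All 4 groups overlapped. Log2 fold changes ran from -0.07 to 0.04 in the 6 comparisons with an SE of 0.10, and the sign of each turned in at least 1 alternative.

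The make-up of the syndecan family, on the per-length scale, also differed between the groups. *Sdc2* accounted for 71.5% ± 3.41 of the summed FPKM of the 4 syndecans in the control, 72.9% ± 2.15 on Collagen I, 70.9% ± 3.31 on fibronectin, and 64.2% ± 0.378 on Geltrex™ (SD, n = 3). The share of *Sdc4* was 18.7% ± 2.31, 16.2% ± 1.09, 20.2% ± 1.92, and 26.7% ± 0.301 in the same order. All Geltrex™ samples lay below the samples of the other groups in the share of *Sdc2* and above them in the share of *Sdc4*. *Sdc3* contributed 0.689% ± 0.109, 0.685% ± 0.0902, 1.13% ± 0.09, and 1.42% ± 0.067, and the per-length ratio of *Sdc4* to *Sdc1* was 2.05 ± 0.118, 1.59 ± 0.103, 2.64 ± 0.224, and 3.45 ± 0.0163. No test was run on the shares and ratios.

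The 10 proliferating cell markers were called higher on fibronectin and on Geltrex™ than in the control, 10 of 10 in each comparison with median log2 fold changes of 1.70 and 1.60, and the 10 myotube markers were called lower, 10 of 10 with medians of -2.02 and -1.48. With the Geltrex™ samples summed, 10 proliferating cell markers were called higher and 9 myotube markers lower. On Collagen I, 0 of 10 of either list was called against the control by edgeR. At an unadjusted p under 0.05, 6 proliferating cell markers were lower and 2 myotube markers higher there, and DESeq2 called 2 of each. On fibronectin and Geltrex™, *Sdc3* and *Sdc4* were higher than in the control, like the proliferating cell markers. *Lum* and *Dcn* were lower there, like the myotube markers. The other genes did not share 1 pattern. *Fmod* was lower on fibronectin (-0.84) and Geltrex™ (-2.19), but also on Collagen I (-1.58). Against the control, *Sdc2* and *Gpc1* were called on fibronectin only and *Bgn* on Geltrex™ only. *Sdc1* and *Vcan* were called on neither. The part of these lists in the values of these genes was not tested. Between fibronectin and Geltrex™, 0 of 10 proliferating cell markers were called by edgeR (median 0.03, with 0 also at an unadjusted p under 0.05 and 0 by DESeq2), and 6 of 10 myotube markers were lower on fibronectin (median -0.46), or 3 with the Geltrex™ samples summed. The 6 calls between these coatings stand beside those values, with the limits given for each gene. *Sdc3* and *Sdc4* were lower on fibronectin than on Geltrex™. *Dcn*, *Bgn*, *Lum*, and *Fmod* were higher on fibronectin, opposite to the myotube markers. The part of either list in these calls was not tested.

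**Figure D3:**
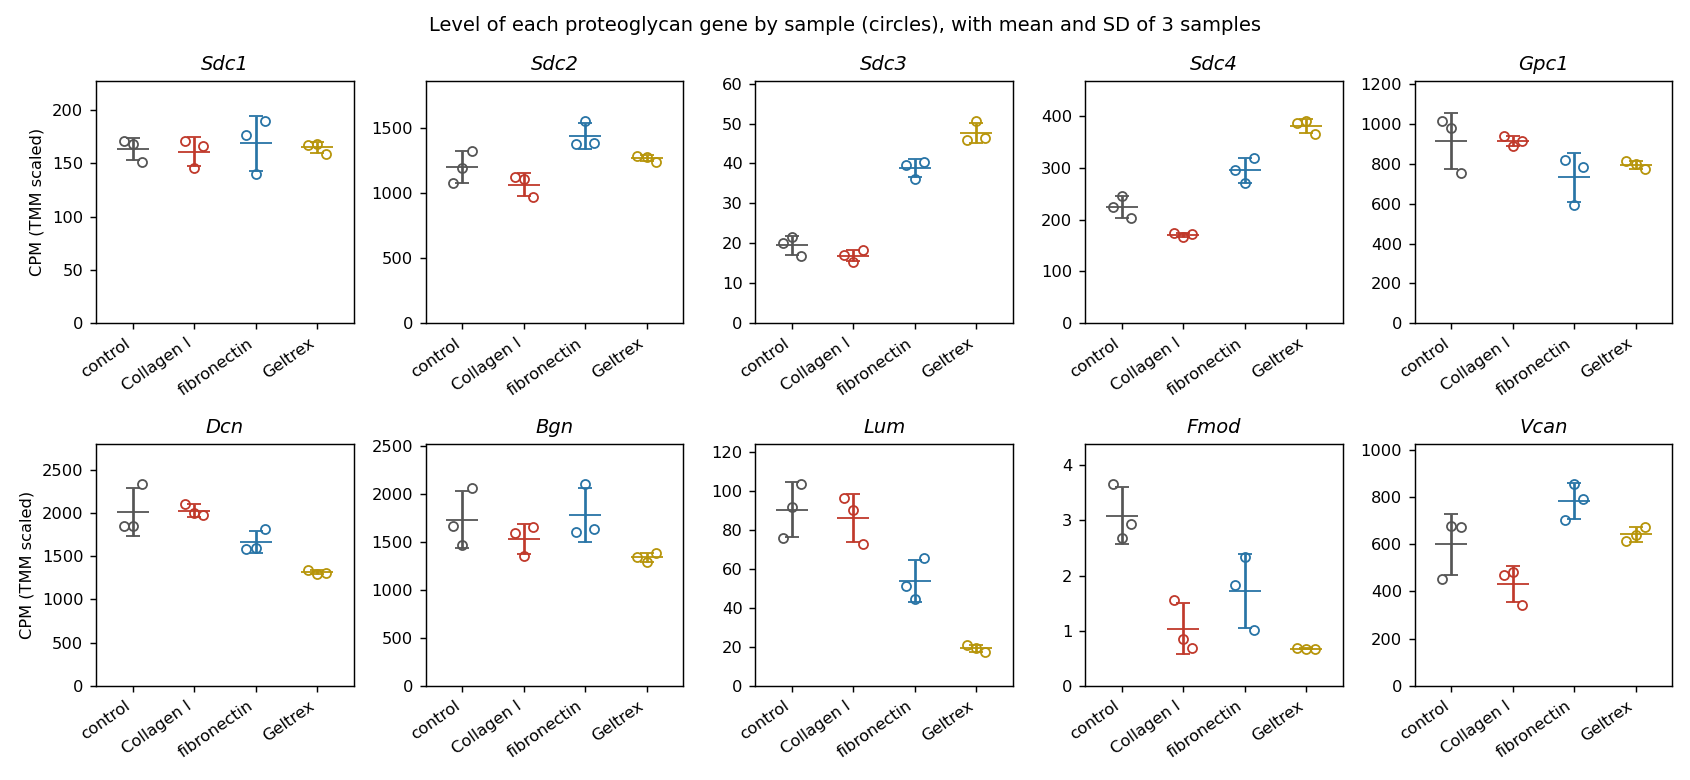
Level of each of the 10 genes in CPM (vertical axes start at 0) in the 3 samples of each group (circles), with the mean as a horizontal line and the SD as an error bar. *Sdc3* and *Sdc4* are highest on Geltrex™, *Lum* lies at 75.8 to 104 CPM in the control and 17.4 to 20.7 CPM on Geltrex™, and the *Sdc1* groups overlap.

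*Gpc1* (ENSMUSG00000034220, chr1:92831645-92860779), the only glypican among the 10 genes, which presents growth factors such as FGF2 to their receptors, showed differences close to the spread between samples. Its level was 1014, 982, and 756 CPM in the control, 939.5, 890.4, and 916 CPM with Collagen I, 822, 593, and 783 CPM with fibronectin, and 813, 797, and 774 CPM with Geltrex™. The control samples overlapped with those of every coating, while the Collagen I samples lay above the fibronectin and Geltrex™ samples. *Gpc1* was 1.25-fold lower on fibronectin than in the control (log2 fold change -0.32 ± 0.12 SE, adjusted p = 0.0499) and than on Collagen I (adjusted p = 0.0392). The first call was lost without Collagen I replicate 1 or 2, any Geltrex™ replicate, control replicate 1 or 2, or fibronectin replicate 2 (0.0582 to 0.226), with RLE normalization (0.0525), with the Geltrex™ samples summed (0.108), and with only these 2 groups fitted (0.101). The second was lost without any Collagen I or Geltrex™ replicate or fibronectin replicate 2 (0.0544 to 0.194), with the Geltrex™ samples summed (0.0875), and with only its 2 groups fitted (0.0536). Without control replicate 3, Geltrex™ was called below the control (-0.33, adjusted p = 0.0441), and it was not called with all samples (-0.21, adjusted p = 0.206). Collagen I was called above Geltrex™ only when these 2 groups alone were fitted (0.20, adjusted p = 0.0249). Exons of *Ankmy1* on the opposite strand cover 18.9% of the *Gpc1* exons, and *Ankmy1* had 554 counts in all against 248948 for *Gpc1*. Whether counting used the strand is not given in the sources used here.

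*Dcn* (ENSMUSG00000019929, chr10:97479609-97518143) and *Lum* (ENSMUSG00000036446, chr10:97565128-97572703) are neighbours on chromosome 10, and both were highest without a coating or on Collagen I and lowest on Geltrex™. *Dcn*, which binds collagen fibrils and TGF-β, measured 1847, 1848, and 2335 CPM in the control, 2109, 1999, and 1976 CPM with Collagen I, 1585, 1599, and 1812 CPM with fibronectin, and 1343, 1299, and 1306 CPM with Geltrex™. Every Geltrex™ sample lay below every fibronectin sample, and these lay below every control and Collagen I sample. *Dcn* was 1.53-fold lower on Geltrex™ than in the control (log2 fold change -0.61 ± 0.10 SE, adjusted p = 0.000149) and 1.54-fold lower than on Collagen I (adjusted p = 0.000121). Both held in all 20 alternatives, at adjusted p = 0.0234 and 0.0214 with the Geltrex™ samples summed. The 3 calls that involve fibronectin were smaller. Fibronectin against the control (-0.27, adjusted p = 0.0417) was lost without Collagen I replicate 1 or 2, any Geltrex™ replicate, control replicate 3, or fibronectin replicate 1 or 2 (0.053 to 0.216), with the Geltrex™ samples summed (0.105), and with only these 2 groups fitted (0.0923). Collagen I against fibronectin (0.28, adjusted p = 0.0249) was lost without Collagen I replicate 1 or fibronectin replicate 1 or 2 (0.079 to 0.0986) and with the Geltrex™ samples summed (0.0688). Fibronectin against Geltrex™ (0.34, adjusted p = 0.0216) was lost without any Geltrex™ replicate or fibronectin replicate 3 (0.0667 to 0.0847, and 0.31 with the Geltrex™ samples summed).

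*Lum*, which regulates the width of collagen fibrils, changed more than its neighbour. The levels were 75.8, 92.1, and 104 CPM in the control, 96.3, 90.1, and 72.7 CPM with Collagen I, 51.0, 44.8, and 65.7 CPM with fibronectin, and 20.7, 19.4, and 17.4 CPM with Geltrex™. The Geltrex™ samples lay lowest, the fibronectin samples lay between, and the control and Collagen I samples overlapped with each other only. *Lum* was 4.71-fold lower on Geltrex™ than in the control (log2 fold change -2.24 ± 0.15 SE, adjusted p = 2.98e-08), 4.50-fold lower than on Collagen I (adjusted p = 3.47e-08), and 2.81-fold lower than on fibronectin (adjusted p = 4.14e-06). On fibronectin it was 1.68-fold lower than in the control (-0.75 ± 0.14, adjusted p = 0.000965) and 1.60-fold lower than on Collagen I (adjusted p = 0.00133). All 5 calls held in all 20 alternatives, with adjusted p = 4.40e-05, 4.79e-05, and 0.00197 for the Geltrex™ comparisons when its samples were summed. The per-length ratio of *Lum* to *Dcn* was 0.108 ± 0.0106 in the control, 0.101 ± 0.0118 on Collagen I, 0.0767 ± 0.00989 on fibronectin, and 0.0347 ± 0.00263 on Geltrex™.

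*Fmod* (ENSMUSG00000041559, chr1:134037254-134048277), which shares collagen binding with *Lum*, was the least abundant of the genes. It was detected at 3.66, 2.68, and 2.93 CPM in the control, 1.56, 0.855, and 0.69 CPM with Collagen I, 1.82, 2.34, and 1.01 CPM with fibronectin, and 0.683, 0.659, and 0.676 CPM with Geltrex™. The control samples were above all coated samples, and Collagen I and fibronectin overlapped. The Geltrex™ samples were below all others in CPM, but Geltrex™ replicates 1 and 2 and Collagen I replicate 3 had 16 counts each. Collagen I against Geltrex™ (log2 fold change 0.61) was not called in any setting. *Fmod* was 4.56-fold lower on Geltrex™ than in the control (log2 fold change -2.19 ± 0.34 SE, adjusted p = 0.000115), which held in all 20 alternatives (adjusted p = 0.00725 with the Geltrex™ samples summed). It was 2.99-fold lower on Collagen I (-1.58 ± 0.31, adjusted p = 0.024) and 1.79-fold lower on fibronectin (-0.84 ± 0.29, adjusted p = 0.039). The Collagen I call was lost without Collagen I replicate 2 or 3 or any control replicate (0.0514 to 0.101), with the Geltrex™ samples summed (0.0703), and with only these 2 groups fitted (0.0715). The fibronectin call was lost without any Geltrex™ replicate, control replicate 1 or 3, or fibronectin replicate 1 or 3 (0.0524 to 0.147), with DESeq2 (0.0543), and with the Geltrex™ samples summed (0.0727). Fibronectin stood above Geltrex™ by 1.35 (adjusted p = 0.014), which was lost without Geltrex™ replicate 2 or fibronectin replicate 2 (0.0529 and 0.0762) and with the Geltrex™ samples summed (0.145). Collagen I against fibronectin, not called with all samples (-0.74, adjusted p = 0.0806), was called without Collagen I replicate 1 or fibronectin replicate 3 (0.0182 and 0.0148) and with no filter on low counts (0.0389).

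*Bgn* (ENSMUSG00000031375, chrX:73483602-73495933), the closest relative of *Dcn* and a ligand of toll-like receptors when released, was lower on Geltrex™ than in the control and on fibronectin by small amounts. It measured 1668, 1473, and 2061 CPM in the control, 1595, 1358, and 1655 CPM with Collagen I, 1609, 2106, and 1638 CPM with fibronectin, and 1346, 1296, and 1388 CPM with Geltrex™. The Geltrex™ samples lay below the control and fibronectin samples and overlapped with Collagen I. *Bgn* was 1.29-fold lower on Geltrex™ than in the control (log2 fold change -0.37 ± 0.13 SE, adjusted p = 0.0353) and 1.33-fold lower than on fibronectin (adjusted p = 0.0335). The first call was lost without Collagen I replicate 1, any Geltrex™ replicate, or control replicate 1 or 3 (0.0501 to 0.194, and 0.293 with the Geltrex™ samples summed), and the second without any Geltrex™ replicate or fibronectin replicate 2 (0.0753 to 0.173, and 0.336 summed). On Collagen I and fibronectin the differences from the control were -0.18 (adjusted p = 0.534) and 0.04 (adjusted p = 0.834).

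*Dcn* made up 51.7% ± 1.18 of the summed FPKM of the 4 small leucine-rich proteoglycans in the control, 54.8% ± 1.99 on Collagen I, 47.6% ± 4.26 on fibronectin, and 49.7% ± 0.787 on Geltrex™ (SD, n = 3). *Bgn* made up 42.6% ± 1.84, 39.6% ± 2.73, 48.6% ± 5.01, and 48.5% ± 0.94, and *Lum* 5.57% ± 0.676, 5.56% ± 0.804, 3.68% ± 0.785, and 1.73% ± 0.156. All Geltrex™ samples lay below those of the other groups in the share of *Lum*. Decorin and lumican are abundant in fibroblasts, and the 8 fibroblast markers summed to 1121 to 1157 CPM in the control, 1156 to 1410 CPM with Collagen I, 881 to 1156 CPM with fibronectin, and 1114 to 1166 CPM with Geltrex™. These sums were led by *Gsn* and *Ly6a*, at 675 ± 7.64 and 346 ± 19.6 CPM in the control, and mostly reflect these genes. Of the 7 tested, *Pi16* (-1.47) and *Clec3b* (-0.81) were called lower and *Cd34* (0.41) higher on Geltrex™ than in the control, and the other 4 were not called. On fibronectin, *Clec3b* (-1.42) and *Ly6a* (-0.35) were called lower and *Cd34* (0.36) higher. These markers are named after their values were seen, and their part in the values of *Dcn* and *Lum* was not tested. With the Geltrex™ samples summed, the *Pi16* call on Geltrex™ was kept and those of *Clec3b* and *Cd34* were lost. The *Ly6a* call on fibronectin was lost in that setting too. It was also lost without control replicate 1 or fibronectin replicate 1 or 2.

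**Figure D4:**
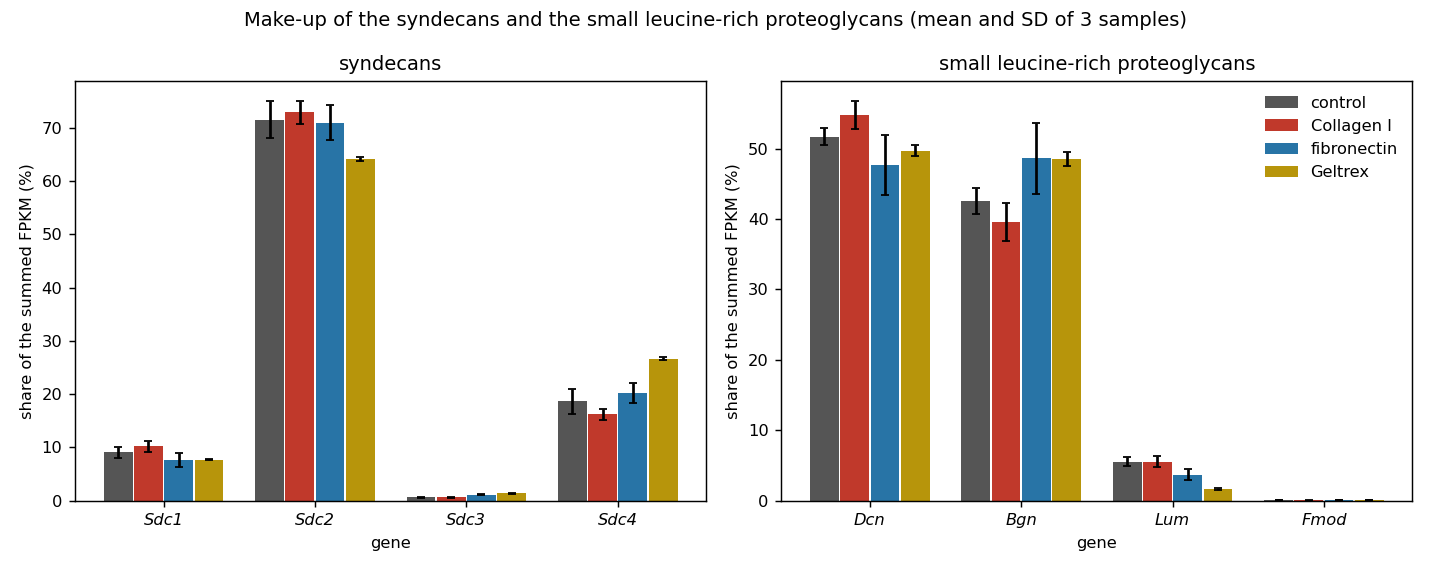
Share of each gene in the summed FPKM of the 4 syndecans (left) and of the 4 small leucine-rich proteoglycans (right), in percent, as mean (bar) and SD (error bar) of 3 samples in each group. On Geltrex™ the mean share of *Sdc4* is 26.7% and that of *Lum* 1.73%, in each case apart from the samples of the other groups.

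*Vcan* (ENSMUSG00000021614, chr13:89655312-89742509) was lowest on Collagen I. Its level was 451, 677, and 672 CPM in the control, 470.4, 481, and 343 CPM with Collagen I, 704, 855, and 794 CPM with fibronectin, and 613, 640.1, and 675 CPM with Geltrex™. The Collagen I samples lay below all fibronectin and Geltrex™ samples, the fibronectin samples lay above all others, and control replicate 1 lay among the Collagen I samples. *Vcan* was 1.82-fold lower on Collagen I than on fibronectin (log2 fold change -0.86 ± 0.15 SE, adjusted p = 0.000287), which held in all 20 alternatives. It was 1.49-fold lower than on Geltrex™ (-0.57 ± 0.15, adjusted p = 0.00643), which was lost only with the Geltrex™ samples summed (adjusted p = 0.0996). Against the control, Collagen I (-0.48, adjusted p = 0.129) and fibronectin (0.39, adjusted p = 0.0559) were not called. The Collagen I difference was called without control replicate 1 (-0.64, adjusted p = 0.0218) and with no filter on low counts (-0.48, adjusted p = 0.000103). The fibronectin difference was called without Collagen I replicate 3 or control replicate 2 or 3 (0.0298 to 0.0427), with DESeq2 (0.0369), under the replicate block (0.039), and with no filter (0.000333). Fibronectin was not called above Geltrex™ with all samples (0.29), but it was with no filter (adjusted p = 0.0228) and with only these 2 groups fitted (0.0254).

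The genes that build, modify, and bind the sugar chains of these cores were read from lists. Their counts against the control stand beside 17.1% of all genes called higher and 14.7% lower on fibronectin, and 16.4% and 16.6% on Geltrex™. With the Geltrex™ samples summed, the shares of all genes for Geltrex™ were 7.3% and 5.97%. Of 18 tested genes for the synthesis and editing of heparan sulfate, the chain of syndecans and glypicans, 9 were higher and 1 lower on fibronectin than in the control, with a median log2 fold change of 0.24 beside -0.02 over all genes, and on Geltrex™ 4 were higher and 2 lower (median 0.03), counts near the shares of all genes, or 2 and 1 with the Geltrex™ samples summed. *Ext1*, a chain polymerase, rose from 636 ± 23.4 CPM in the control to 801 ± 33.5 CPM with fibronectin and 920.3 ± 11.2 CPM with Geltrex™ (adjusted p = 0.0021 and 2.7e-05, the latter 0.00688 with the Geltrex™ samples summed). *Glce*, the epimerase, and *Hs2st1*, a sulfotransferase, rose on fibronectin by 0.54 and 0.47 on the log2 scale and were at 0.13 and 0.03, not called, on Geltrex™. *Hpse*, the heparanase that cuts the chains, was at 1.57 ± 0.239 CPM in the control, 3.52 ± 0.89 CPM with fibronectin, and 5.18 ± 0.639 CPM with Geltrex™, and was called in both comparisons (adjusted p = 0.000936 for Geltrex™ with its samples summed).

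Of 15 tested genes for chondroitin and dermatan sulfate, the chains of versican, decorin, and biglycan, 7 were higher and 2 lower on fibronectin than in the control (median 0.25), and 5 were higher and 2 lower on Geltrex™ (median 0.08), or 2 and 1 with the Geltrex™ samples summed. On Collagen I, 9 were lower and 2 higher than on fibronectin, beside 22.9% and 22.1% of all genes (median -0.38 beside 0.02 over all genes). *Csgalnact1*, which starts chondroitin chains, was higher on fibronectin (0.53) and Geltrex™ (0.72) than in the control, as were the sulfotransferase *Chst15* (0.40 and 0.73) and the dermatan sulfate epimerase *Dse* (0.55 and 0.27). The *Dse* call on Geltrex™ was lost with the Geltrex™ samples summed (adjusted p = 0.203) and without Geltrex™ replicate 1 or 2 or control replicate 1 or 3, and the *Chst15* call on fibronectin without control replicate 1 or 3 or fibronectin replicate 1. *Chst11*, another sulfotransferase, was lower on Collagen I than in the control (-0.44), which was lost with the Geltrex™ samples summed (adjusted p = 0.058) and with only these 2 groups fitted. In the shared steps before the chains diverge, 10 tested genes gave 3 higher and 2 lower on fibronectin and 2 higher and 1 lower on Geltrex™, counts near the shares of all genes. *Ugdh*, which makes a sugar precursor, was at 0.34 on fibronectin against the control, *Papss1*, which makes the sulfate donor, was at 0.25 and 0.29 on fibronectin and Geltrex™, *Pxylp1*, a linker phosphatase, was at 0.78 on Geltrex™, and *B3gat3*, which adds the last linker sugar, was at -0.44 on fibronectin, and these 5 values were called. *Papss1* on Geltrex™ was lost with the Geltrex™ samples summed (adjusted p = 0.117), and *B3gat3* (0.0554) was lost there, with only its 2 groups fitted, and without control replicate 1 or fibronectin replicate 2. *Papss1* on fibronectin was lost without control replicate 1 or fibronectin replicate 1, with no filter on low counts, and with only its 2 groups fitted.

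Of 8 tested partners of the syndecan tails, 6 were higher and 0 lower on fibronectin than in the control (median log2 fold change 0.39), 3 were higher and 0 lower on Geltrex™ (median 0.26), and 6 were lower on Collagen I than on fibronectin and 6 lower than on Geltrex™ (beside 22.9% and 19% of all genes). With the Geltrex™ samples summed, the Geltrex™ calls against the control were lost. Those of fibronectin against the control were kept, except that of *Ezr*. Fewer were then called lower on Collagen I than on Geltrex™, as was so over all genes. At an unadjusted p under 0.05 in edgeR and by DESeq2, 0 were lower on fibronectin or Geltrex™ than in the control. *Cask*, a scaffold that binds the tail end, rose from 114 ± 17.9 CPM in the control to 174 ± 6.58 CPM with fibronectin and 161 ± 1.93 CPM with Geltrex™ (adjusted p = 0.065 for the latter with its samples summed). *Arf6*, a GTPase of syndecan recycling, was higher on fibronectin (0.38) and Geltrex™ (0.34, adjusted p = 0.076 summed), whereas *Prkca*, the kinase bound by *Sdc4*, and *Tiam1*, a Rac activator, were higher on fibronectin (0.42 and 0.55) and at 0.02 and -0.03, not called, on Geltrex™. Of 12 tested growth factors and receptors that bind heparan sulfate, 4 were higher and 2 lower on each of fibronectin and Geltrex™ than in the control, and the counts lower were near the shares of all genes. With the Geltrex™ samples summed, 3 were higher and 1 lower there. *Hgf*, the satellite cell activator, had 53.7 ± 12.3 CPM in the control, 52.9 ± 16.5 CPM with Collagen I, 116 ± 12.4 CPM with fibronectin, and 203 ± 4.1 CPM with Geltrex™, and was called higher on both of the latter than in the control (adjusted p = 0.000242 for Geltrex™ with its samples summed). *Fgf2* was higher on fibronectin (0.45) and lower on Geltrex™ (-0.42, adjusted p = 0.0904 summed) than in the control, *Fgf7* was higher on Geltrex™ (1.13) and lower on Collagen I (-0.73), and *Fgfr3* was lower on fibronectin (-1.63) and Geltrex™ (-1.54). Exons of genes on the opposite strand cover 17.9% of those of *Chst15*, 13.6% of those of *Arf6*, and 13.9% of those of *Fgfr3*, and these overlapping genes had 16, 13, and 15 counts in all.

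Of 13 tested genes around hyaluronan and versican, 3 were higher and 2 lower on fibronectin than in the control, counts near the shares of all genes, and 4 were higher and 5 lower on Geltrex™, or 4 and 1 with the Geltrex™ samples summed. *Adamts1* and *Adamts5*, proteases that cut versican, were at 129 ± 11.4 and 79.2 ± 6.44 CPM in the control. They rose to 256 ± 8.93 and 161 ± 7.34 CPM on Geltrex™ (log2 fold changes of 0.99 and 1.03 with its samples summed). Both were also called higher on fibronectin, at 169 ± 10.7 and 120 ± 18.5 CPM. *Adamts5* also rose to 129 ± 2.91 CPM on Collagen I. *Has2*, a hyaluronan synthase, was higher on fibronectin (0.42) and Geltrex™ (0.71) than in the control, and *Cemip*, which takes part in hyaluronan breakdown, was lower on Collagen I (-0.78) and Geltrex™ (-1.14). The *Cemip* call on Collagen I was lost in 11 of the 20 alternatives, among them without Collagen I replicate 2 or 3, any Geltrex™ replicate, or any control replicate. Of 18 other tested core proteins, 7 were higher and 1 lower on fibronectin, and 7 were higher and 3 lower on Geltrex™, or 5 and 2 with its samples summed. On Collagen I, 11 were lower and 1 higher than on each of the other coatings (medians -0.68 and -0.49). These counts stand beside 22.9% and 22.1% of all genes against fibronectin and 19% and 18.2% against Geltrex™. Fewer were called lower than on Geltrex™ when its samples were summed, as was so over all genes. *Cd44*, the hyaluronan receptor, measured 644 ± 81.9 CPM in the control, 409 ± 29 CPM with Collagen I, 1239 ± 110.1 CPM with fibronectin, and 1113 ± 5.92 CPM with Geltrex™, and was lower on Collagen I (-0.66) and higher on fibronectin (0.94) and Geltrex™ (0.79, adjusted p = 0.00321 summed) than in the control. *Col18a1*, whose product carries heparan sulfate in basement membranes, was higher on fibronectin (1.81) and Geltrex™ (0.92), as were *Tgfbr3*, the betaglycan (0.42 and 0.72), and *Nrp1*, the co-receptor neuropilin (0.63 and 0.87). The Geltrex™ calls of *Chst15*, *Csgalnact1*, *Pxylp1*, *Fgf7*, *Fgfr3*, *Has2*, *Cemip*, *Col18a1*, *Tgfbr3*, and *Nrp1* were kept when its samples were summed, at adjusted p = 0.000371 to 0.0422. On Collagen I against the control, edgeR called 0 to 2 genes in each of the 7 lists. The lists with 0 calls were linker synthesis, with 2 genes at an unadjusted p under 0.05 and 1 called by DESeq2, and heparan sulfate chain genes, with 5 and 1.

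**Figure D5:**
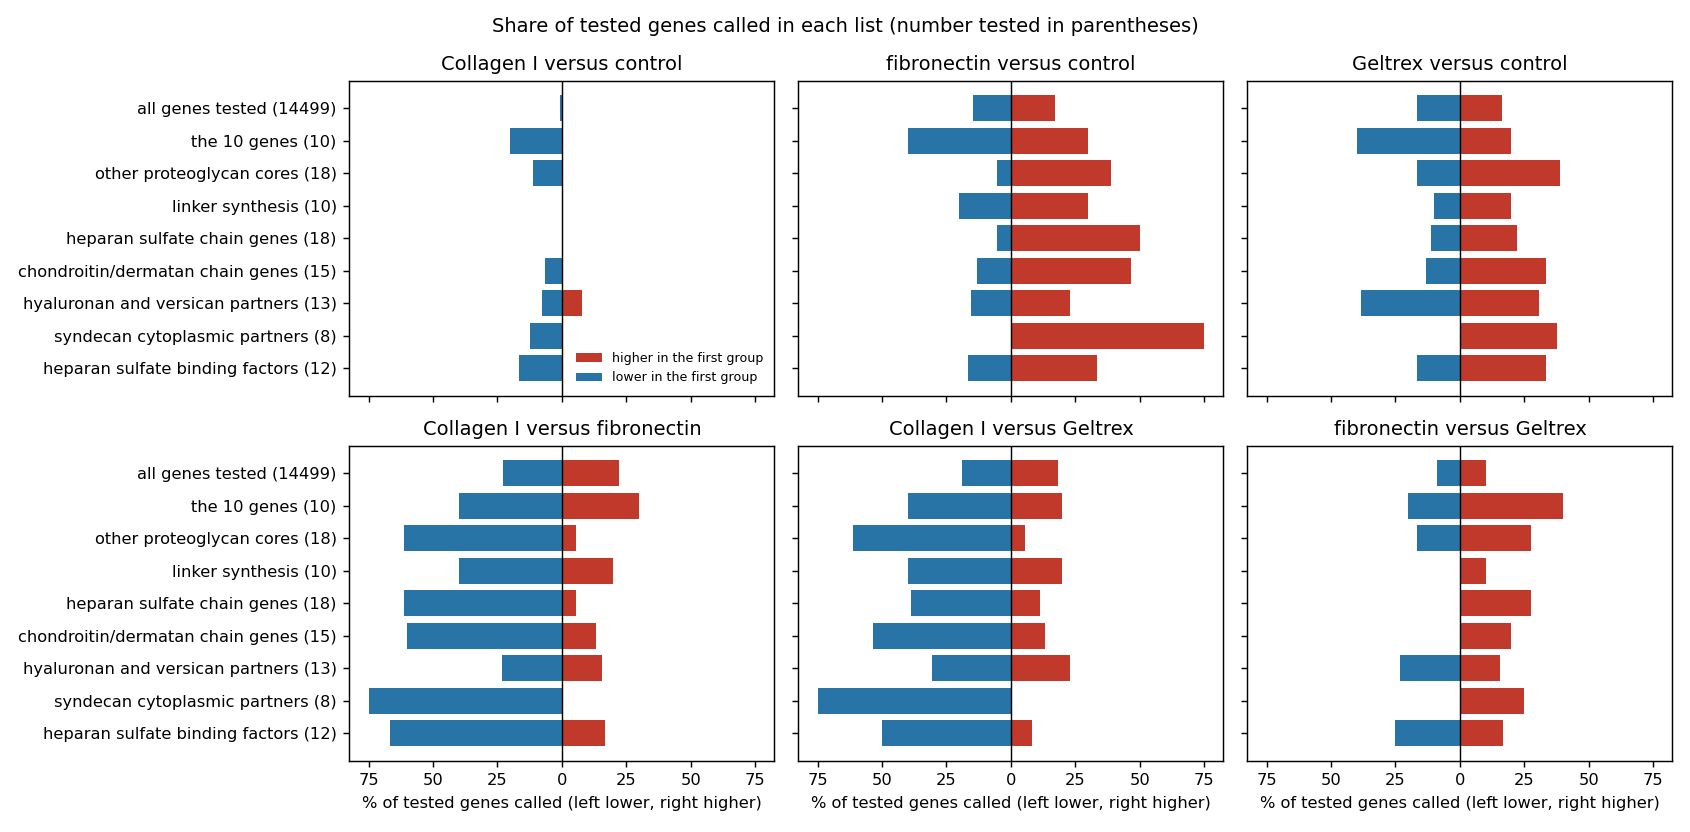
Percent of tested genes called higher (red, right of 0) or lower (blue, left of 0) in the first group of each of the 6 comparisons, at an adjusted p of at most 0.05 in edgeR, for all 14499 genes, the 10 genes, and 7 lists of related genes with the number tested. The syndecan cytoplasmic partners show 6 of 8 higher on fibronectin than in the control and 0 lower.

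For each gene called in at least 3 of the 6 comparisons, the nearest profiles among 12320 genes were found by the root mean square difference of log2 CPM over the 12 samples, each gene centred on its own mean. *Ncapd2* lay nearest to *Sdc3* at 0.116, followed by *Gm12715* and *Mcm3*, where *Sdc3* itself varied about its mean by 0.643. *Gm10052*, *Phf19*, and *Tubb4b* lay nearest to *Sdc4* (0.109 to 0.132, with 0.439 for *Sdc4* itself), *Pitpnb*, *Eif4e*, and *Itfg1* to *Sdc2* (0.0313 to 0.0432, with 0.179), and *Htra1*, *Mtif3*, and *Ankra2* to *Dcn* (0.0864 to 0.0959, with 0.269). *Nos1*, *Itga8*, and *Cilp* lay nearest to *Lum* (0.206 to 0.283, with 0.913). For *Fmod*, the nearest were *Tas1r1*, *Fam198b*, and *Cemip*, at 0.415 to 0.430 with 0.849 for *Fmod* itself, which is the loosest likeness of the 6.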

How the data were processed

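RNA-seq of the 12 samples was deposited by the authors as a table of raw counts, with a column per sample and no normalization. Per the labels and the methods, reads were checked with FastQC, trimmed with Trimmomatic, aligned with HISAT2, and counted with featureCounts, and the authors tested with DESeq2; the versions, genome build, annotation, and strand setting are not given in the sources used here. All 55536 identifiers were found in GENCODE M21 (GRCm38), which gave names, positions, and union exon lengths.

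The tests used edgeR 4.0.16 (R 4.3.3). After filterByExpr (minimum count 10, minimum total 15) and TMM scaling, 1 quasi-likelihood model of the 4 groups with 8 residual degrees of freedom gave 6 two-sided comparisons and a test for any difference. Benjamini-Hochberg adjustment covered the 14499 genes tested, and a gene was called at an adjusted p of at most 0.05. FPKM was CPM divided by exon length in kilobases. The procedure was tested on simulated counts. Genes of highly similar sequence may share reads, and depth limits *Fmod* in particular.

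The 10 genes and the lists were chosen with earlier results of these data known. Named genes are the 10 genes, the 4 genes of each other list with the smallest adjusted p for any difference, and the 3 nearest profiles of each gene called in at least 3 comparisons, among genes with a mean of at least 1 CPM. The lists are other proteoglycan cores, linker synthesis, heparan sulfate chain genes, chondroitin and dermatan sulfate chain genes, hyaluronan and versican partners, syndecan cytoplasmic partners, heparan sulfate binding growth factors and receptors, and cell type markers.

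Each test was repeated with DESeq2 1.42.0, RLE or upper quartile normalization, no filter, at least 10 counts in every sample, only the 2 groups compared, the replicate number as a block, the 3 Geltrex™ samples summed, without each sample in turn, and with a fold change of at least 2 also required.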

Additional observations from a re-analysis of the deposited data

How the results depend on the processing

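Of the 34 calls in the 10 genes, 18 held in all 20 alternatives that change the fit and 16 were lost in at least 1. The number of the 10 genes called against the control was 2 on Collagen I, 7 on fibronectin, and 6 on Geltrex™ plates. With the Geltrex™ samples summed into 1, the lone sample being assumed to vary like the other groups, it was 0 for Collagen I and 3 for fibronectin, and fibronectin against Geltrex™ went from 6 to 1. With only the 2 groups fitted it was 0 for Collagen I and 4 for fibronectin. With a fold change of at least 2 required, the counts were 1, 0, and 3 against the control, 1 for Collagen I against fibronectin (from 7), 3 for Collagen I against Geltrex™ (from 6), and 2 for fibronectin against Geltrex™. Leaving out 1 sample gave 0 to 2 for Collagen I, 3 to 8 for fibronectin, and 2 to 6 for fibronectin against Geltrex™. Counts over all genes moved too. Collagen I against control went from 162 to 44 without Collagen I replicate 2. Fibronectin against Geltrex™ went from 2805 to 1717 without Geltrex™ replicate 1. Over all genes, fibronectin against control moved less in proportion. The heparan sulfate chain genes with any difference went from 14 to 9 with the Geltrex™ samples summed. The cause of these shifts was not tested, beyond the fewer samples in the fit.

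Values whose sign turned were not called in any setting. Under upper quartile normalization, *Sdc1* went to 0.0014 for Collagen I against control, -0.012 for Geltrex™ against control, and 0.013 for Collagen I against Geltrex™, and *Gpc1* to 0.021 for Collagen I against control. *Gpc1* was also at 0.0046 there with only the 2 groups fitted, and *Sdc1* at -0.0067 for Geltrex™ against control with at least 10 counts in every sample. Leaving out 1 sample, *Sdc1* ranged from -0.076 to 0.047 for Collagen I against control, -0.039 to 0.16 for fibronectin against control, -0.039 to 0.045 for Geltrex™ against control, -0.19 to 0.018 for Collagen I against fibronectin, -0.087 to 0.026 for Collagen I against Geltrex™, and -0.0600 to 0.15 for fibronectin against Geltrex™. *Gpc1* ranged from -0.12 to 0.075 for Collagen I against control and -0.21 to 0.014 for fibronectin against Geltrex™, *Dcn* from -0.044 to 0.13 and *Lum* from -0.18 to 0.041 for Collagen I against control, *Bgn* from -0.093 to 0.19 for fibronectin against control, and *Vcan* from -0.0701 to 0.20 for Geltrex™ against control.

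Over all genes, Collagen I against control called 162, and 452 with DESeq2, 581 with no filter, 39 with only its 2 groups, 45 with the Geltrex™ samples summed, and 19 with a fold change of at least 2. Summing the Geltrex™ samples left 2079 of 4786 for Geltrex™ against control, 2130 of 5384 for Collagen I against Geltrex™, and 703 of 2805 for fibronectin against Geltrex™.

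The same replicate numbers occur in every group, and the correlations of same-numbered samples' deviations were -0.15 to 0.23 over the 6 comparisons, so the numbers were not taken to pair the samples. Collagen I and fibronectin came closest, with 0.05, 0.17, and 0.23 and 6 of 6 samples nearest to their own number. Under the replicate block, the counts called were 2, 8, and 6 for the coatings against the control, in the order Collagen I, fibronectin, Geltrex™ (2, 7, and 6 without it), 7 and 5 for Collagen I against fibronectin and Geltrex™ (7 and 6), and 5 for fibronectin against Geltrex™ (6). *Vcan* was gained for fibronectin against control (adjusted p = 0.039), *Sdc2* was lost for Collagen I against Geltrex™ (0.0508) and *Sdc3* for fibronectin against Geltrex™ (0.0596), and *Gpc1* for Collagen I against control was at 0.00085. The block changed no other call in the 10 genes.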
